A study of Homo sapiens with 10 samples.

Results

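The comparison concerned the week in which NKX2-1GFP+ cells of human thyroid organoids went from a cAMP analogue to hrTSH and dexamethasone. Its samples were the 2 libraries of day 38, labelled TSH DEX, and the 2 libraries of day 31, labelled c-AMP, 4 of the 10 libraries of the series. A gene was kept if 2 or more of the 10 libraries held 5 counts or more of it, which 21014 of 28265 gene symbols did. The thyroid function genes and a short list of inflammation genes were set aside, and what is described is the change outside them.

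The series followed thyroid differentiation by bulk RNA-seq at days 16, 23, 31, 38 and 45, with 2 libraries a day. All cells came from ESIBIe003-A-6, a human embryonic stem cell line that reports *NKX2-1* through a GFP allele and carries *NKX2-1* and *PAX8* as transgenes under a doxycycline switch. Every group shared activin A, then doxycycline, earlier in the protocol, and organoid culture in Matrigel. All were dissociated with enzymes and sorted for live GFP+ cells, and each library came from several pooled wells. For the dissociation the labels name trypsin, and the study's methods name dispase II, collagenase type IV and TripLE Express. By the labels and the study's methods, the day 31 cells had been in 8-br-cAMP, a cell-permeable cAMP analogue, and the day 38 cells in hrTSH, a recombinant human thyrotropin, with dexamethasone, a synthetic glucocorticoid. In the study's protocol the medium was exchanged shortly before day 31, so these cells may already have had brief contact with the new one. The sources place the start of SB431542, an inhibitor of TGFβ receptor kinases, at or just before the day 38 collection, so the day 38 cells may have had brief contact with it too. As a model, each group is a single line that was made from modified stem cells, and reads of the transgenes cannot be separated from those of the native genes. Between the libraries used here, medium and 7 days of further culture changed together, so their parts in any difference cannot be told apart.

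TSH binds a G protein-coupled receptor on thyrocytes and works in part through cAMP, while a glucocorticoid binds a nuclear receptor that acts on gene promoters and enhancers. A thyrocyte is a polarised epithelial cell that rests on a basement membrane, moves ions across its membranes, makes a very large secretory protein in its endoplasmic reticulum (ER) and produces hydrogen peroxide. Progenitors of the foregut endoderm are patterned by BMP, FGF, WNT and retinoic acid signals, and their position along the body axis is marked by HOX genes.

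The depth was 9122044 and 8065086 counts on day 31 and 10333933 and 9121301 counts on day 38, and a fold change is given with its standard error (SE). Values are given as CPM, counts scaled by library size and edgeR's TMM factors (1.07 and 1.07 at day 31, 0.896 and 0.942 at day 38). A floor of 3 counts corresponded to 0.307 and 0.349 CPM on day 31 and 0.324 and 0.349 on day 38, and covers counting error only. Replicates of day 31 correlated with r = 0.940 and those of day 38 with r = 0.970 across genes in log2 CPM. Genes are not independent replicates. The study calls the libraries of a day biological replicates from distinct wells, and nothing says that they came from separate differentiations, so p-values measure the spread between these libraries. In a bulk sample, fewer cells of a type and less RNA per cell cannot be told apart. The sort used the *NKX2-1* reporter, and *NKX2-1* and *PAX8* are also the transgenes, so their levels do not test the identity of the cells. *NKX2-1* was at 151 and 157 CPM on day 31, against 154 and 133 on day 38, and *PAX8* at 529 and 477 CPM on day 31, against 500.4 and 527 on day 38, and neither was called.

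The make-up of the libraries also differed between the days. RN7SK, a small nuclear RNA that binds the elongation factor P-TEFb, took 2.92 and 3.86% of the counts at day 31 and 8.17 and 6.76% at day 38. Protein-coding genes took 90.0 and 89.2% on day 31 and 81.0 and 83.5% on day 38. This shift's part in the differences below was not tested.

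At a Benjamini-Hochberg adjusted p of 0.05, edgeR's quasi-likelihood test called 3160 genes between the days, which is 15.0% of the genes tested. Of these, 1850 were higher at day 38 (8.80%) and 1310 were lower (6.23%), so that 58.5% of the calls were higher. The log2 fold change was at least 1 in size for 1021 of the higher and 670 of the lower genes, together 8.05% of the genes tested. The libraries of the days did not overlap in CPM for 57.0% of all genes tested, and they overlapped for 2 of the genes called, so that a remark below on days that did not overlap adds nothing to a call. When TMM factors were left out, the median over all genes shifted from 0 to −0.20 on the log2 scale, and the calls split into 1183 higher and 2368 lower, or 33.3% higher. Small changes therefore depend on the scaling, and no gene called was called in the opposite direction under the settings tried. The shares of 8.80 and 6.23% are the background for the counts of list members below, and the median of 0 is that for their medians. The lists were chosen with earlier results of these data known, so an excess over this background is a description and not a test. For lists of abundant genes the background is higher, since, of 5 bins of protein-coding genes of equal size by mean CPM, 3.04% were called in the lowest and 35.9% in the highest, where 716 of 3258 were higher and 454 lower.

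**Figure D1:**
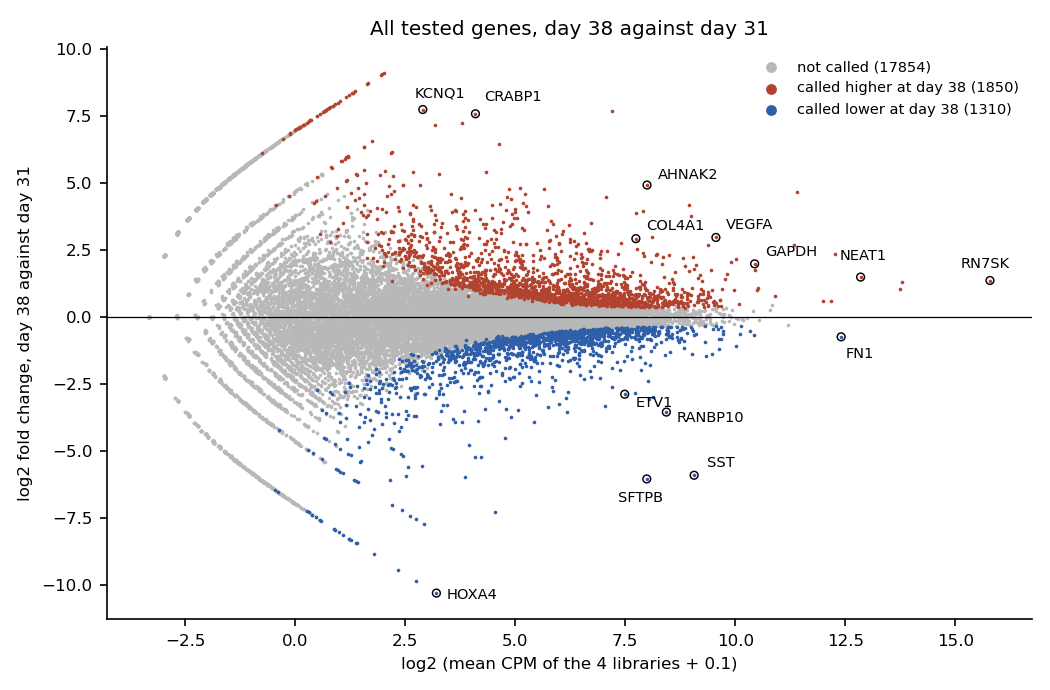
Log2 fold change (day 38 against day 31) of each of the 21014 genes tested, against the log2 of its mean CPM over the 4 libraries plus 0.1. Red points are the 1850 genes called higher and blue points the 1310 called lower (edgeR adjusted p under 0.05). Named points include *VEGFA* and *COL4A1* among the higher and *SST*, *SFTPB* and *HOXA4* among the lower.

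Of genes with a mean of at least 5 CPM, most of the 10 with the largest increase on the log2 scale were near the floor at day 31. *KCNQ1*, a potassium channel subunit found in thyrocytes and cardiac muscle (chromosome 11, 2444654 to 2849105, GRCh38, GENCODE 44), had 1 and 0 counts on day 31, against 141 and 121 on day 38. *CRABP1*, which binds retinoic acid in the cytosol (chromosome 15, 78340353 to 78348225), had 3 and 0 counts on day 31, against 372 and 236 on day 38. *NPPC*, the precursor of C-type natriuretic peptide, had 2 and 0 counts on day 31, against 140 and 173 on day 38. The day 38 counts were far above those of day 31 in each. With so few counts at day 31 the ratio is known only within its counting interval, which was 270-fold (95% interval 48.0 to 10700) for *KCNQ1*, 209-fold (71.0 to 1010) for *CRABP1* and 161-fold (44.2 to 1340) for *NPPC*. edgeR's adjusted p was 6.2e-09, 3.3e-12 and 4.7e-06 for *KCNQ1*, *CRABP1* and *NPPC*. *KCNQ1* shares 3.98% of its exonic bases with antisense transcripts, and the strand setting of the counting is not stated. Of called genes named below, *PDIA6*, *IFI6*, *IGF2*, *CP* and *COL18A1* share 25.2, 23.1, 21.7, 20.1 and 18.5% of their exonic bases with other genes.

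*KCNQ1*, *CRABP1* and *TMEM178B* were at their lowest at day 31. *KCNQ1* was at 2.92 and 2.95 CPM on day 16 and 1.99 and 0.457 on day 23, and at 28.4 and 38.4 on day 45. *CRABP1* was at 1.01 and 2.59 CPM on day 16, 1.44 and 2.63 on day 23 and 72 and 63.4 on day 45. *TMEM178B*, at 0 and 0.349 CPM on day 31, against 26.6 and 27.8 on day 38, had 7.86 and 5.05 CPM on day 16 and 22.6 and 13.9 on day 45. The decrease from day 23 to day 31 was called for *KCNQ1*, *CRABP1* and *TMEM178B* (edgeR adjusted p = 0.016, 0.0041 and 0.0022). That comparison shares the day 31 libraries with the one described here. These genes were chosen by their rise from day 31, which favours low values at day 31, so the decrease is not an independent result.

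The other genes at the top of the increases were *FSTL4*, a follistatin-like protein (0.512 and 0.582 CPM on day 31, against 42.1 and 56.2 on day 38), *MYO3B*, a class III myosin (1.43 and 0.349 CPM on day 31, against 35 and 43.3 on day 38), and *HSF4*, a heat shock transcription factor (0 and 0.582 CPM on day 31, against 10.6 and 14.1 on day 38). *EHF*, an epithelial ETS transcription factor, was at 0.102 and 0.814 CPM on day 31, against 17.7 and 19.6 on day 38, and *BHLHE41*, a repressor of the circadian clock, at 0.307 and 0.349 CPM on day 31, against 10.9 and 9.78 on day 38. *AHNAK2*, a very large scaffold protein, was the one of these 10 genes with over 5 CPM at day 31. It was at 16.4 and 16.2 CPM on day 31, against 480.5 and 506 on day 38 (log2 fold change 4.92 ± 0.23 SE, edgeR adjusted p = 5.3e-18). The choice of these 10 genes required that the days did not overlap.

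Most genes of glycolysis and the hypoxia response rose. This list holds the glucose transporter, the enzymes that turn glucose into lactate and well-known targets of hypoxia-inducible factors. Of its 27 genes tested, 21 were called higher and none lower, with a median log2 fold change of 1.42, and the count stayed at 21 without TMM factors and between 20 and 21 with single libraries left out. *VEGFA*, the angiogenic growth factor (chromosome 6, 43770184 to 43786487), was at 173 and 169 CPM on day 31, against 1374 and 1303 on day 38. *EGLN3*, an oxygen-sensing prolyl hydroxylase, was at 10.1 and 16.9 CPM on day 31, against 120.5 and 95.5 on day 38. *SLC2A1*, the glucose transporter GLUT1, was at 367 and 394 CPM on day 31, against 1776 and 1591 on day 38. The days did not overlap in any of these, and the log2 fold changes were 2.97 for *VEGFA* (SE 0.12, edgeR adjusted p = 3.9e-19), 3.0 for *EGLN3* (edgeR adjusted p = 4.4e-11) and 2.15 for *SLC2A1* (edgeR adjusted p = 1.1e-13).

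The steps of glycolysis moved by different amounts. *HK2*, which phosphorylates glucose, rose by 2.50 on the log2 scale, *GPI* by 2.19, *PGK1* by 1.95, *ENO1* by 1.42 and *PKM*, the last step to pyruvate, by 0.90. *LDHA*, which makes lactate, was at 385 and 353 CPM on day 31, against 1608 and 1455 on day 38 (log2 fold change 2.05). *GAPDH*, often taken as a constant reference gene, was at 566 and 557 CPM on day 31, against 2425 and 2010.1 on day 38 (log2 fold change 1.98 ± 0.12 SE, edgeR adjusted p = 6.7e-15), and its reads can be shared with many processed copies. *PFKFB4* and *PFKFB3*, which make the activator of phosphofructokinase, rose by 2.36 and 1.60, whereas the phosphofructokinase genes *PFKL* and *PFKM* were not called (0.11 and −0.20). *PDK1*, a kinase that inhibits pyruvate dehydrogenase, rose by 1.66. Its relative *PDK4*, which is counted in the glucocorticoid list, fell by 1.13 (100.4 and 96.8 CPM on day 31, against 45.2 and 44.8 on day 38, edgeR adjusted p = 5.2e-06). The list members that were not called also included *CA9* (2.66 and 0.814 CPM on day 31, against 4.53 and 4.77 on day 38), *ADM* and *ALDOA*.

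Most genes of the ER list rose as well. Of 28 genes for chaperones, disulfide formation and the unfolded protein response, 19 were called higher and 1 lower, with a median log2 fold change of 0.71, with 16 called higher without TMM factors and none lower without day 38 replicate 1. *HSPA5*, the chaperone BiP (chromosome 9, 125234853 to 125241382), was at 315 and 290.1 CPM on day 31, against 870.2 and 799 on day 38 (log2 fold change 1.46 ± 0.12 SE, edgeR adjusted p = 1.2e-11). *ERO1A*, the oxidase that drives disulfide formation and also a hypoxia target, was at 123 and 106 CPM on day 31, against 548 and 527 on day 38 (log2 fold change 2.23, edgeR adjusted p = 4.3e-14). *HSP90B1*, the chaperone GRP94, was at 660.1 and 678 CPM on day 31, against 1343 and 1334 on day 38. In these genes the day 38 libraries lay well above those of day 31.

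*XBP1*, a transcription factor of the unfolded protein response, rose by 0.97 on the log2 scale, and its targets *DNAJB9* and *HERPUD1* by 1.66 and 1.61. The disulfide isomerases *P4HB*, *PDIA6*, *PDIA4* and *PDIA3* rose by 0.89, 0.77, 0.70 and 0.60. *TRIB3*, a target of the PERK arm, was at 3.38 and 1.05 CPM on day 31, against 28.4 and 27.5 on day 38 (log2 fold change 3.63 ± 0.56 SE, edgeR adjusted p = 9.8e-06), while *ATF4* and *DDIT3* of the same arm were not called (0.28 and 0.35). *EDEM1*, which sends misfolded glycoproteins to degradation, was the member called lower (−0.64, edgeR adjusted p = 0.0051).

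**Figure D2:**
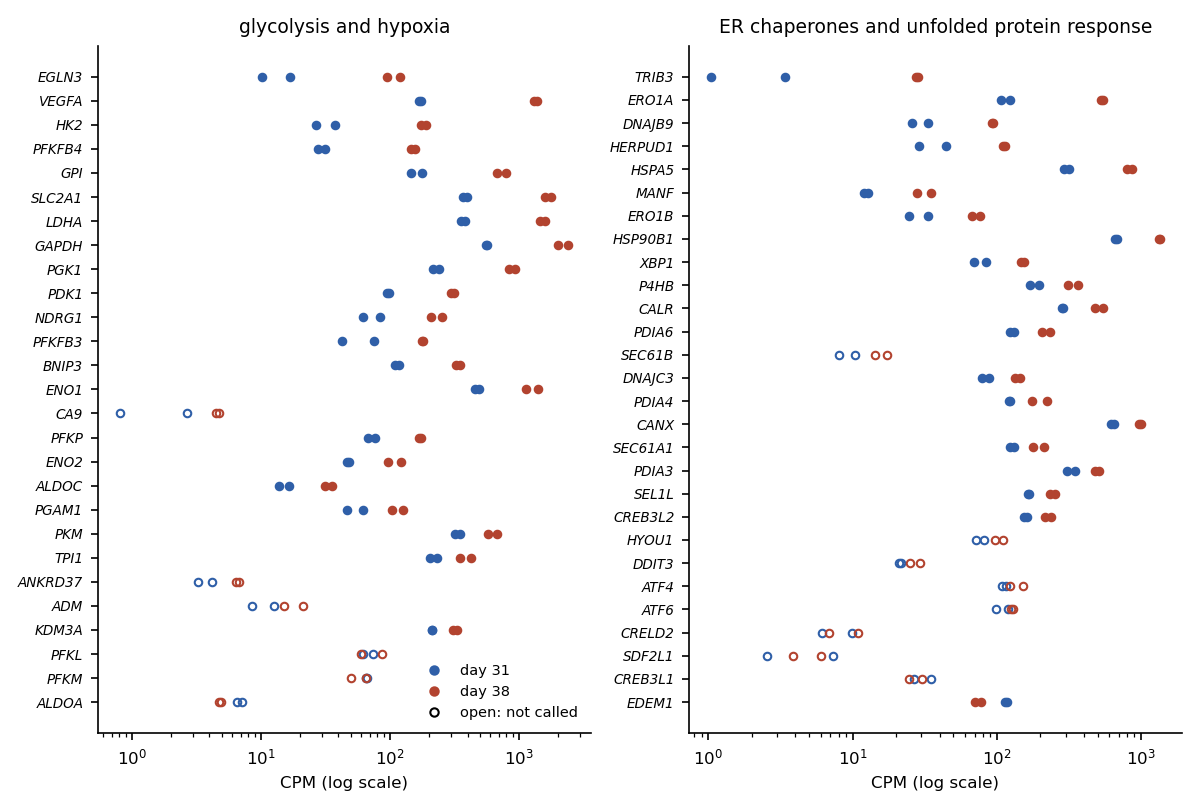
CPM (log scale) of each gene of the glycolysis and hypoxia list (left) and the ER list (right) in the 2 libraries of day 31 (blue) and the 2 of day 38 (red). Filled points are genes called by edgeR at an adjusted p under 0.05. Of the 27 genes on the left 21 were called higher, and of the 28 on the right 19 were called higher and 1 lower.

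Basement membrane genes moved unequally. Of 25 genes for basement membrane proteins and integrins, 8 were called higher and 3 lower, with a median log2 fold change of 0.24 (0.02 without TMM factors). *COL4A1*, the main chain of collagen IV (chromosome 13, 110148963 to 110307157), was at 51.7 and 48 CPM on day 31, against 374 and 382 on day 38. Its partner *COL4A2* was at 37.7 and 50.3 CPM on day 31, against 311 and 283 on day 38, and *NID1*, which links laminin to collagen IV, at 21.6 and 14.4 CPM on day 31, against 84.5 and 79.9 on day 38. The days were wide apart in these genes, with log2 fold changes of 2.92 for *COL4A1* (edgeR adjusted p = 3.0e-17), 2.76 for *COL4A2* and 2.19 for *NID1*. The heparan sulfate proteoglycan *HSPG2* rose by 1.08, *COL18A1* by 1.25 and the laminin chains *LAMA3* and *LAMB2* by 1.57 and 0.68. The chains of the most common laminins, *LAMA1*, *LAMA5*, *LAMB1* and *LAMC1*, were not called, with log2 fold changes of 0.18, 0.18, 0.05 and −0.18. *ITGA2* and *ITGA3* were among the members called lower (−0.62 and −0.62), and no member was called lower without day 31 replicate 2, day 38 replicate 1 or day 38 replicate 2, and 1 without day 31 replicate 1 or with either day 23 library left out.

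Of 16 genes for ion and water transport, 6 were called higher and none lower, with a median log2 fold change of 0.86. *SLC26A7*, an anion exchanger of thyrocytes, was at 17.2 and 21.4 CPM on day 31, against 174 and 168 on day 38 (log2 fold change 3.15 ± 0.23 SE, edgeR adjusted p = 1.1e-12). *SCNN1B*, the β subunit of the epithelial sodium channel, was at 5.83 and 3.72 CPM on day 31, against 43.9 and 48.7 on day 38. The γ subunit *SCNN1G* was at 11.9 and 11.4 CPM on day 31, against 86.7 and 70.8 on day 38. Both subunits were separated between the days (log2 fold change 3.27 and 2.76, edgeR adjusted p = 6.1e-07 and 8.5e-07), while the α subunit *SCNN1A* was not called (14.8 and 19.3 CPM on day 31, against 27 and 17.6 on day 38). The sodium pump subunit *ATP1B1* rose by 1.28 on the log2 scale. *KCNE2*, the partner of *KCNQ1* in thyrocytes, was at 0 and 0.233 CPM on day 31, against 1.08 and 1.75 on day 38 and was not called. The water channels *AQP3*, *AQP4* and *AQP5* and the chloride channels *CFTR* and *ANO1* were not called either.

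Genes that handle hydrogen peroxide and oxidants went in both directions, with 8 of 27 called higher and 4 lower, and a median log2 fold change of 0.21 that was −0.01 without TMM factors and 0.12 without day 31 replicate 2. *SLC7A11*, the cystine transporter that feeds glutathione synthesis, was at 22.3 and 24 CPM on day 31, against 136 and 152 on day 38 (log2 fold change 2.64 ± 0.20 SE, edgeR adjusted p = 1.2e-12). The other genes called higher were the glutathione peroxidases *GPX1*, *GPX4*, *GPX7* and *GPX8* (1.22, 0.96, 1.16 and 0.77) and the peroxiredoxins *PRDX2*, *PRDX3* and *PRDX4* (0.63, 0.82 and 0.81). The 4 called lower were *NQO1*, *TXNRD1*, *GCLC* and *GPX2*, which act in quinone reduction, thioredoxin reduction, glutathione synthesis and peroxide removal. *NQO1* was at 39 and 46.6 CPM on day 31, against 11.7 and 11.3 on day 38, with a log2 fold change of −1.90, and *TXNRD1*, *GCLC* and *GPX2* had −0.96, −0.80 and −2.07. The count of higher calls was 4 without day 31 replicate 1 and 3 without day 38 replicate 1.

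Known glucocorticoid targets were called in part. Of 16 genes tested, 5 were called higher and 1 lower, with a median log2 fold change of 0.44, and the 1 lower was *PDK4*. The median was 0.90 without day 31 replicate 2 and 0.22 without TMM factors. *FKBP5*, the receptor's co-chaperone and a sensitive target, was at 34.1 and 39.8 CPM on day 31, against 142 and 157 on day 38 (log2 fold change 2.02 ± 0.23 SE, edgeR adjusted p = 4.0e-08). *ZBTB16*, a transcription factor that steroids induce in many tissues, was at 3.27 and 3.37 CPM on day 31, against 13.4 and 11.1 on day 38, and *FAM107A*, an actin-binding stress protein, at 8.80 and 9.66 CPM on day 31, against 32.8 and 28.9 on day 38. The days did not overlap in these genes, with log2 fold changes of 1.87 for *ZBTB16* and 1.74 for *FAM107A*. *TSC22D3*, which encodes the anti-inflammatory protein GILZ, and the kinase *SGK1* rose by 1.13 and 1.15. Other targets that glucocorticoids raise in many cells were not called, among them *DUSP1* (596 and 599 CPM on day 31, against 599 and 542 on day 38), *PER1* (71.3 and 109 CPM on day 31, against 80.1 and 75.5 on day 38) and *KLF9* (0.63). The receptor gene *NR3C1* had a log2 fold change of 0.23 and was not called.

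Metallothioneins bind zinc and copper and respond to both metals and glucocorticoids. Of 9 genes of the metallothionein and zinc list tested, 3 were called higher and none lower, with 1 lower without day 16 replicate 1 or TMM factors, and *MT1A* and *MT1M* did not pass the filter on counts. *MT2A* was at 0.921 and 1.63 CPM on day 31, against 14.6 and 7.33 on day 38 (log2 fold change 3.10 ± 0.61 SE, edgeR adjusted p = 2.9e-04), and *MT1X* at 4.71 and 7.91 CPM on day 31, against 22 and 17.8 on day 38 (log2 fold change 1.66 ± 0.41 SE, edgeR adjusted p = 0.0035). Neither gene overlapped between the days, and in *MT2A* the day 38 libraries also differed from each other. *MT1E*, *MT1F* and *MT1G* were below 1 CPM in every library of these days and were not called, and the zinc importer *SLC39A10* rose by 0.60. The bases just before the start of both genes are shown because *MT2A* and *MT1X* moved together and lie in the same cluster, with the metal response element core (TGCACNC or TGCGCNC, either strand) in capitals. The sequences are from RefSeq (GRCh38.p14, plus strand), chr16:56608414-56608583 for *MT2A* and chr16:56682300-56682469 for *MT1X*.
MT2A: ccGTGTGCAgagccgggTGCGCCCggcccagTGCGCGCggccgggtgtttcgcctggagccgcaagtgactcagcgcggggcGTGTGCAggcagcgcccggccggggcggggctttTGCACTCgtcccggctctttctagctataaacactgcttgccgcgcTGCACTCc
MT1X: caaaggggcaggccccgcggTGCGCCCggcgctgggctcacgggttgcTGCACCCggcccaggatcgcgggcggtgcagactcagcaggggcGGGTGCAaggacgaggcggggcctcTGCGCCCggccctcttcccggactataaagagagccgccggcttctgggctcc

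The core occurred 6 times in the last 170 bases before *MT2A* and 4 times before *MT1X*. Such short cores are common, and 35.9% of the 14838 tested genes with a promoter in the RefSeq table had at least 1 in 300 bases, against 36.9% of those called higher and 37.1% of those called lower. A match is a description of the letters and not of a bound factor.

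Targets of cAMP and CREB, the transcription factor that cAMP activates through its kinase, did not move as a block. Of 12 genes tested, 4 were called higher and 1 lower, with a median log2 fold change of 0.26 (0.04 without TMM factors), and 2 lower with either day 16 library left out and 3 without TMM factors. *PDE10A*, a phosphodiesterase that breaks down cyclic nucleotides, was at 34.1 and 24.9 CPM on day 31, against 156 and 189.7 on day 38 (log2 fold change 2.55 ± 0.19 SE, edgeR adjusted p = 1.1e-12). *PPARGC1A*, a coactivator of mitochondrial genes, was at 18.9 and 18.4 CPM on day 31, against 57.6 and 74.1 on day 38, and *PDE4B* and *NR4A2* rose by 1.30 and 1.56. Neither day overlapped the other in these 4 genes. *NR4A1* fell by 0.69 (276 and 271 CPM on day 31, against 179 and 161 on day 38), and *CREM*, *PDE4D*, *FOSB* and *RGS2* were not called.

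*SST*, the peptide hormone somatostatin, is a textbook CREB target and had one of the largest decreases. It was at 984 and 1123 CPM on day 31, against 20.6 and 14.4 on day 38 (chromosome 3, 187668912 to 187670394, log2 fold change −5.90 ± 0.22 SE, edgeR adjusted p = 1.4e-20). *VGF*, a neuropeptide precursor that is also a known CREB target, was at 29.9 and 27.2 CPM on day 31, against 0.540 and 0.349 on day 38 (log2 fold change −5.95 ± 0.63 SE, edgeR adjusted p = 6.4e-09), and *FN1*, which encodes fibronectin, at 6532 and 7057 CPM on day 31, against 4227 and 3898 on day 38 (log2 fold change −0.74 ± 0.09 SE, edgeR adjusted p = 2.5e-07). In all of these the day 38 libraries were below the day 31 libraries, far below in *SST* and *VGF* and less so in *FN1*. The palindromic cAMP response element TGACGTCA was found before the start of these genes and, among the genes that rose most, before *FSTL4*. These were chosen after their values were seen, and of the called genes of the cAMP list, the 4 with a promoter in the table held no such element there, while *NR4A2* has no promoter in the table. The stretch around it is shown for each, 5′ to 3′ on the gene's minus strand (RefSeq, GRCh38.p14), with the element in capitals. The positions are chr3:187670395-187670481 for *SST*, chr7:101165601-101165688 for *VGF*, chr2:215436204-215436291 for *FN1* and chr5:133612542-133612609 for *FSTL4*.
SST: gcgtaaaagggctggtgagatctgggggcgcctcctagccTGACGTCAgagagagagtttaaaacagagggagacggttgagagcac
VGF: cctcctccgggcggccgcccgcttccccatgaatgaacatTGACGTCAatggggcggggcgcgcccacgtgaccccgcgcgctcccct
FN1: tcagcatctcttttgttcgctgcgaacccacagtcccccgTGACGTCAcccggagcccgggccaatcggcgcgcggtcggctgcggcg
FSTL4: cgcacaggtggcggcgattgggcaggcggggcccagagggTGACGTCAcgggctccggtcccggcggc

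The element starts 47 bases before the start of *SST*, 79 before *VGF*, 183 before *FN1* and 28 before *FSTL4*. It was in the 300 bases of 2.68% of tested genes with a promoter in the table, of 2.64% of those called higher and of 2.75% of those called lower, so the shares differed little. A full palindromic glucocorticoid response element was in the promoter of 2 of the 14838 tested genes and of none that were called. With so few matches the shares cannot be compared.

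Immediate early and heat shock genes, which dissociation of tissue is known to raise, gave calls in both directions. Of 20 genes tested, 3 were called higher and 3 lower, with a median log2 fold change of −0.09, and 1 and 8 without TMM factors, 1 higher without day 31 replicate 1 and 5 lower with either day 16 library left out. The median was −0.31 without TMM factors and between −0.21 and −0.01 with single libraries left out. *FOS* was at 1231 and 1261 CPM on day 31, against 1518 and 1401 on day 38, *JUN* at 1033 and 1048 CPM on day 31, against 1073 and 978 on day 38 and *EGR1* at 2720.3 and 2499 CPM on day 31, against 2224 and 2027 on day 38, and none of these was called. The widest change was in *HSPH1*, a cytosolic heat shock protein, at 456 and 417 CPM on day 31, against 82.5 and 85.3 on day 38 (log2 fold change −2.38 ± 0.13 SE, edgeR adjusted p = 3.4e-16), with both day 38 libraries far below both of day 31. *HSP90AA1* fell by 0.38 and the mRNA-decay factor *ZFP36* by 1.11. The highest log2 fold change of the list was 1.37, and its genes called higher are not named here. *HSPA1A* and *HSPA1B*, the heat-inducible HSP70 genes, were under 2 CPM in every library of these days.

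Genes of DNA replication fell where they were called. Of 16 genes of replication licensing and synthesis, 8 were called lower and none higher, with a median log2 fold change of −1.05. *MCM2*, a subunit of the replicative helicase (chromosome 3, 127598410 to 127622436), was at 52.1 and 53.2 CPM on day 31, against 18 and 13.4 on day 38 (log2 fold change −1.74 ± 0.26 SE, edgeR adjusted p = 5.1e-06). *MCM5* was at 36.6 and 27.5 CPM on day 31, against 9.72 and 8.73 on day 38 (log2 fold change −1.80 ± 0.35 SE, edgeR adjusted p = 2.4e-04). The days did not overlap in either, and *MCM3*, *MCM4*, *MCM6* and *MCM7* fell by 1.09, 1.47, 0.98 and 1.01 on the log2 scale, so that all 6 helicase subunits were called lower. *CDC6*, which loads the helicase, and *UHRF1*, which maintains DNA methylation, fell by 1.27 and 1.46. *PCNA*, *RRM2* and *TYMS* were not called (−0.62, −0.14 and −0.21). The count was 5 without day 31 replicate 1, and *MCM7* shares 8.49% of its exonic bases with overlapping genes.

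Of 18 mitosis genes, 1 was called higher and none lower, with a median log2 fold change of 0.48. The median was 0.23 without day 31 replicate 2, 0.29 without day 38 replicate 1 and 0.25 without TMM factors. *TOP2A*, which untangles chromosomes, was at 153 and 139.9 CPM on day 31, against 226 and 226 on day 38 (log2 fold change 0.62, edgeR adjusted p = 0.0065), and without TMM factors no mitosis gene was called higher and 1 was called lower. *MKI67*, the common marker of cycling cells, was at 212 and 182 CPM on day 31, against 172 and 163 on day 38 and was not called. Of 13 cell cycle inhibitors, 4 were called higher and 1 lower. *CDKN1C*, the inhibitor p57, was at 51.5 and 54.6 CPM on day 31, against 289 and 249 on day 38 (log2 fold change 2.34 ± 0.16 SE, edgeR adjusted p = 1.4e-13), and *CDKN1A*, the inhibitor p21, at 21.5 and 24.4 CPM on day 31, against 103 and 78.2 on day 38 (log2 fold change 1.98 ± 0.22 SE, edgeR adjusted p = 1.8e-08). Both genes were separate between the days. *CDKN2B* and *RB1* rose by 1.77 and 0.59, and *RBL1*, the related pocket protein p107, fell by 1.02, while *CDKN1B* was not called (−0.32). The count of inhibitors called higher was 2 without day 31 replicate 2, without day 38 replicate 1 and without TMM factors, and none was called lower without day 31 replicate 2 or day 38 replicate 2.

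Most BMP signalling genes fell. Of 12 genes, 8 were called lower and 1 higher, with a median log2 fold change of −1.0, and the 8 and 1 were the same counts without TMM factors and with DESeq2, while 2 were called higher with either day 16 library left out. Of the ligands, *BMP4* was at 265 and 242 CPM on day 31, against 39 and 43.9 on day 38 (chromosome 14, 53949736 to 53958761, log2 fold change −2.61 ± 0.19 SE, edgeR adjusted p = 7.7e-13), and *BMP2* at 169.9 and 147 CPM on day 31, against 31.7 and 31.5 on day 38 (log2 fold change −2.32 ± 0.18 SE, edgeR adjusted p = 3.3e-12). *BMP7* went the other way, at 9.31 and 8.61 CPM on day 31, against 50.1 and 46.2 on day 38 (log2 fold change 2.42 ± 0.29 SE, edgeR adjusted p = 6.7e-08). The days were far apart in all of these ligands. Of the receptors, *BMPR1B* fell by 1.26 and *BMPR1A* and *BMPR2* were not called (0.25 and 0.18). Of the direct targets and feedback inhibitors, *ID1* was at 675 and 816 CPM on day 31, against 315 and 264 on day 38 (log2 fold change −1.36, edgeR adjusted p = 1.9e-10), *ID2*, *ID3*, *SMAD6* and *BAMBI* fell by 1.14, 0.97, 1.03 and 0.72, and *ID4* was not called (0.29).

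In the FGF, EGF and ERK list, 8 of 21 genes were called lower and 2 higher. The PEA3 group of ETS factors, which ERK signalling induces, fell most. *ETV1* was at 315 and 317 CPM on day 31, against 41.7 and 44 on day 38 (chromosome 7, 13891229 to 13991425, log2 fold change −2.88 ± 0.15 SE, edgeR adjusted p = 1.6e-16). *ETV5* was at 95.4 and 106 CPM on day 31, against 13.6 and 15.9 on day 38 (log2 fold change −2.77 ± 0.26 SE, edgeR adjusted p = 3.1e-10), and *ETV4* at 8.08 and 10.1 CPM on day 31, against 1.08 and 0.349 on day 38 (log2 fold change −3.64 ± 1.00 SE, edgeR adjusted p = 0.010). None of the 3 overlapped between the days. The feedback inhibitors *DUSP4*, *SPRY4*, *SPRED2* and *SPRED1* fell by 1.47, 1.48, 1.16 and 0.67, whereas *DUSP6* and *SPRY2* were not called (−0.47 and −0.33). Among receptors and ligands, *EGFR* and the ligand *EREG* rose by 0.71 and 2.28, *ERBB2* fell by 0.74, and none of the receptors *FGFR1* to *FGFR4* was called.

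WNT targets were split, with 3 of 10 called higher and 3 lower. *AXIN2*, a feedback inhibitor, was at 57.6 and 59.3 CPM on day 31, against 30.1 and 30.6 on day 38 (log2 fold change −0.94 ± 0.22 SE, edgeR adjusted p = 0.0025), and *ZNRF3*, which removes WNT receptors, at 187 and 194 CPM on day 31, against 75.4 and 80.9 on day 38 (log2 fold change −1.28 ± 0.14 SE, edgeR adjusted p = 1.4e-08). *TCF7* fell by 0.94. *NOTUM* and *LGR5*, which are targets as well, rose by 2.31 and 1.36, and *TNFRSF19* by 0.52. None was called higher without day 31 replicate 2 or day 38 replicate 1, and 1 without day 31 replicate 1 or day 38 replicate 2, and 2 were higher and 6 lower without TMM factors. Of 14 Notch genes, 4 were called higher and 2 lower, with 1 higher without day 38 replicate 1 and 2 higher without day 31 replicate 1, day 31 replicate 2 or day 38 replicate 2. None was called lower without day 31 replicate 1, day 38 replicate 1 or day 38 replicate 2, and 1 was without day 31 replicate 2. The receptors *NOTCH3* and *NOTCH2* rose by 0.71 and 0.38, and *NOTCH1* fell by 0.52. Of the target genes, *HEY2* and *HES4* rose by 1.80 and 1.80, *HEY1* fell by 1.25 and *HES1* was not called (125 and 121 CPM on day 31, against 114 and 105 on day 38).

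Of 18 retinoic acid genes, 3 were called higher and 3 lower. Beside *CRABP1*, the genes called higher were *CRABP2*, its relative, with a log2 fold change of 0.99, and *CYP26B1*, which degrades retinoic acid, with 1.39. The retinol importer *STRA6*, the retinoic acid synthesising enzyme *ALDH1A1* and the receptor *RXRG* fell by 0.76, 0.79 and 1.41. The receptors *RARA* and *RARB* were not called (−0.28 and −0.25), and the number of genes called lower was 0 without day 38 replicate 2, 1 without day 31 replicate 1 or day 38 replicate 1 and 5 without day 16 replicate 1.

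HOX genes had the lowest median of the 41 lists examined. Of 39 HOX genes, 24 passed the filter, and 10 of these were called lower and none higher. The median log2 fold change of the 24 was −3.71, or −2.67 with the genes at 0 counts set to their bound, and those that passed include genes seen only at days 16 to 31. *HOXA2* had 102 and 81 counts on day 31, against 0 and 0 on day 38, and *HOXA4* had 207 and 132 counts on day 31, against 0 and 0 on day 38. Both day 38 libraries were at 0 in each. With a floor of 3 counts over the 2 libraries, *HOXA4* was at least 110-fold and *HOXA2* at least 59.3-fold lower (edgeR adjusted p = 4.1e-09 and 9.6e-08). *HOXA5* had 78 and 137 counts on day 31, against 1 and 0 on day 38, and *HOTAIRM1*, a noncoding RNA of the HOXA cluster, had 125 and 146 counts on day 31, against 0 and 1 on day 38. Their ratios were 209-fold lower (95% counting interval 37.1 to 8290) for *HOXA5* and 263-fold lower (46.9 to 10400) for *HOTAIRM1*.

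These genes lie in the HOXA cluster (chromosome 7, 27141052 to 27143681 for *HOXA5*), and 15 of the 39 HOX genes, *HOXA6*, *HOXA7*, *HOXA9* and *HOXA10* among them, did not pass the filter. *HOXA3* was at 41.3 and 50.6 CPM on day 31, against 0.108 and 0.466 on day 38 (log2 fold change −7.28 ± 0.46 SE, edgeR adjusted p = 3.4e-14). In the HOXB cluster, *HOXB2*, *HOXB3* and *HOXB4* fell by 3.92, 3.50 and 3.05 on the log2 scale and still had counts at day 38. *HOXB6* and *HOXB8* were at 0 at day 38, at least 13-fold and 22-fold lower. No HOXC or HOXD gene was called. *HOXA3* had been at 38.5 and 50.8 CPM on day 16 and 49.4 and 45.9 on day 23, and *HOXA3*, *HOXA4*, *HOXA5* and *HOTAIRM1* were at 0 in both day 45 libraries. *HOXA3* and *HOXA4* share 17.3 and 16.5% of their exonic bases with antisense transcripts, whose reads cannot be told apart where the counting did not use strand. *HOXB3* and *HOXB6* share 11.7 and 32.9% with antisense transcripts and with HOXB genes of the same strand, each other included, and the second kind stays ambiguous with strand as well.

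Transcription factors of the foregut and pharynx moved in both directions, with 2 of 23 called higher and 5 lower, and 1 higher when any single library of days 31 and 38 was left out. *GATA3* was at 64.4 and 68.6 CPM on day 31, against 19.5 and 23 on day 38 (log2 fold change −1.64 ± 0.21 SE, edgeR adjusted p = 2.3e-07), and *ISL1* was at 95.8 and 111 CPM on day 31, against 40.8 and 43.5 on day 38 (log2 fold change −1.29 ± 0.18 SE, edgeR adjusted p = 9.8e-07). Day 38 was the lower of the days in each, with no overlap. *GATA6* and *ONECUT2* fell by 0.90 and 1.37, while *GATA4* and *SIX4* rose by 1.70 and 0.93. The endoderm factors *FOXA1*, *FOXA2* and *SOX9* were not called (0.10, −0.52 and 0.22). *HAND1*, a mesodermal basic helix-loop-helix factor, had 135 and 73 counts on day 31, against 2 and 1 on day 38, 67.4-fold lower (95% counting interval 22.7 to 329). Of 16 oncofetal genes, *LIN28B* and *SALL4*, which mark early progenitors, fell by 1.00 and 1.12, as did *IGF2BP1* and *IGF2BP2* (−0.59 and −0.39). *IGF2*, *DLK1* and *HMGA2* rose by 1.53, 0.87 and 0.49, which makes 3 called higher and 4 lower, against 2 and 7 without TMM factors.

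**Figure D3:**
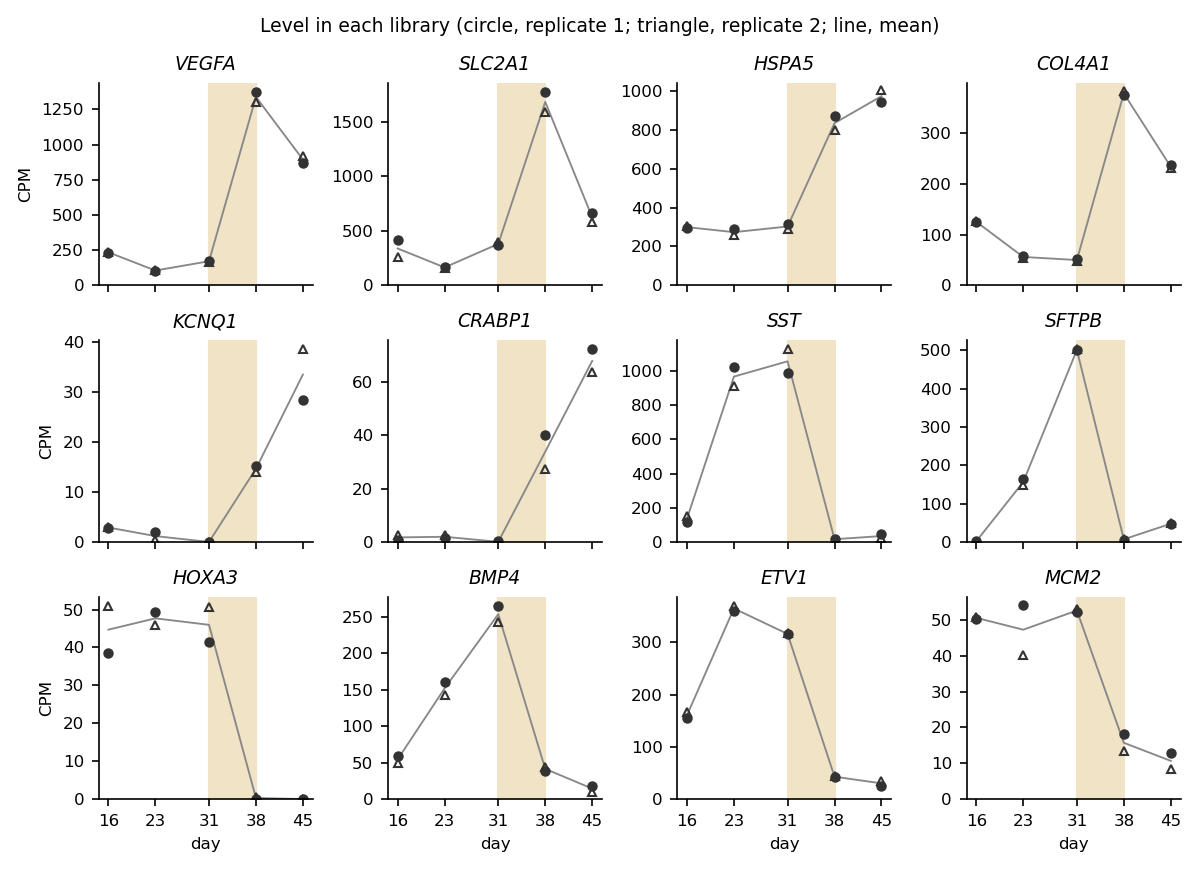
CPM of 12 genes in each of the 10 libraries by day (circle, replicate 1; triangle, replicate 2; line, mean of the 2), with the week from day 31 to day 38 shaded. In the upper row and the first 2 panels of the middle row both day 38 libraries lie above both day 31 libraries, and in the other 6 panels both lie below.

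Surfactant protein B and 2 fibrinogen chains fell. *SFTPB*, surfactant protein B of the distal lung (chromosome 2, 85657314 to 85668741), was at 499 and 502 CPM on day 31, against 6.59 and 8.61 on day 38 (log2 fold change −6.04 ± 0.21 SE, edgeR adjusted p = 1.4e-21). It had risen from 3.55 and 1.48 CPM on day 16 to its day 31 level and was at 46.2 and 50.2 on day 45. *C8B*, a chain of the terminal complement complex, had 121 and 120 counts on day 31, against 1 and 0 on day 38, 234-fold lower (95% counting interval 41.6 to 9290), and *ANKRD66* had 73 and 115 counts on day 31, against 1 and 0 on day 38. The fibrinogen chain *FGB* was at 69.2 and 52.6 CPM on day 31, against 6.80 and 4.19 on day 38 (log2 fold change −3.46 ± 0.36 SE, edgeR adjusted p = 3.4e-09). *FGG* was at 33.1 and 32.8 CPM on day 31, against 3.78 and 0.582 on day 38, while *FGA* was not called (−1.61). Both chains called were far lower in both day 38 libraries, and both were back at 73.4 and 76.9 CPM (*FGB*) and 28.3 and 24.3 CPM (*FGG*) at day 45. In the same acute phase list of 14 genes, *CP*, *A2M* and *SERPINA1* rose by 2.10, 1.02 and 1.01, which makes 3 higher and 2 lower, and 1 higher without day 38 replicate 1. Without TMM factors 2 of these 14 genes were called higher and 3 lower. *C8B* is not in the complement list. Of the 12 genes in it that were tested, 2 were called higher and 1 lower, against 1 and 3 without TMM factors. The protease *C1S* rose by 1.17, and the inhibitor *SERPING1* fell by 1.07. No complement gene was called higher without day 38 replicate 1, 1 without day 31 replicate 2 or day 38 replicate 2, and 3 were called lower with either day 16 library left out.

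Of 22 interferon-stimulated genes, 3 were called higher and 1 lower, with 1 higher with either day 38 library left out, and 2 higher and 4 lower without TMM factors. *IFI44L* was at 4.30 and 3.14 CPM on day 31, against 22.9 and 17.1 on day 38 (log2 fold change 2.42 ± 0.48 SE, edgeR adjusted p = 3.7e-04), *IFI44* and *IFI6* had log2 fold changes of 4.18 and 1.90, and *BST2* fell by 1.65. None was called lower without day 31 replicate 1, day 38 replicate 1 or day 38 replicate 2, and 2 were without day 16 replicate 1. The factors *STAT2* and *IRF9* were not called. Of 10 antigen presentation genes, the class II genes *CD74* and *HLA-DRA* were called higher. *CD74* was at 27.7 and 21.5 CPM on day 31, against 61.9 and 35.6 on day 38, and *HLA-DRA* had 0 and 0 counts on day 31, against 23 and 7 on day 38, at least 10.3-fold higher, while *HLA-B* and *HLA-C* were not called. Neither gene was called without day 31 replicate 2 or day 38 replicate 1, and 1 was without day 31 replicate 1 or day 45 replicate 2.

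Of 36 genes of epithelial junctions and polarity, 9 were called lower and 2 higher, with a median log2 fold change of 0.02 that was −0.20 without TMM factors and between −0.11 and 0.17 with single libraries left out. *CDH1*, the adherens junction cadherin, was at 528 and 518 CPM on day 31, against 624 and 545 on day 38, and *EPCAM* at 276 and 269.9 CPM on day 31, against 339 and 277 on day 38, and neither was called. *KRT18* was at 293 and 331 CPM on day 31, against 156 and 142 on day 38 (log2 fold change −1.07 ± 0.13 SE, edgeR adjusted p = 7.7e-08), and *CLDN4*, a tight junction claudin, at 301 and 317 CPM on day 31, against 155 and 122 on day 38 (log2 fold change −1.15 ± 0.14 SE, edgeR adjusted p = 1.9e-07). *F11R*, *CGN*, *OCLN* and *TJP1* of the tight junction fell by 1.04, 0.91, 0.79 and 0.36, as did *KRT8*, *PATJ* and *VIL1*. *SPINT2* and *PARD3* rose by 0.66 and 0.55. The number called lower was 4 without day 38 replicate 2 and 11 without TMM factors, and that called higher was 6 with either day 16 library left out, 1 without day 31 replicate 1 or day 38 replicate 1 and 0 without TMM factors. *VIL1* shares 44.2%, *KRT18* 17.1% and *KRT8* 7.63% of exonic bases with genes of the opposite strand. Of 9 surface mucins and CEACAMs, *MUC4* was at 9.52 and 3.96 CPM on day 31, against 31.2 and 38.9 on day 38 (log2 fold change 2.36 ± 0.29 SE, edgeR adjusted p = 1.6e-07) and *MUC1* rose by 0.90, while *MUC16* fell by 1.61. Without TMM factors 1 of the 9 was called higher and 2 lower. The number of these called higher was 1 without day 31 replicate 1, day 31 replicate 2 or day 38 replicate 1, and 4 without day 38 replicate 2, and 2 were called lower without day 38 replicate 1.

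**Figure D4:**
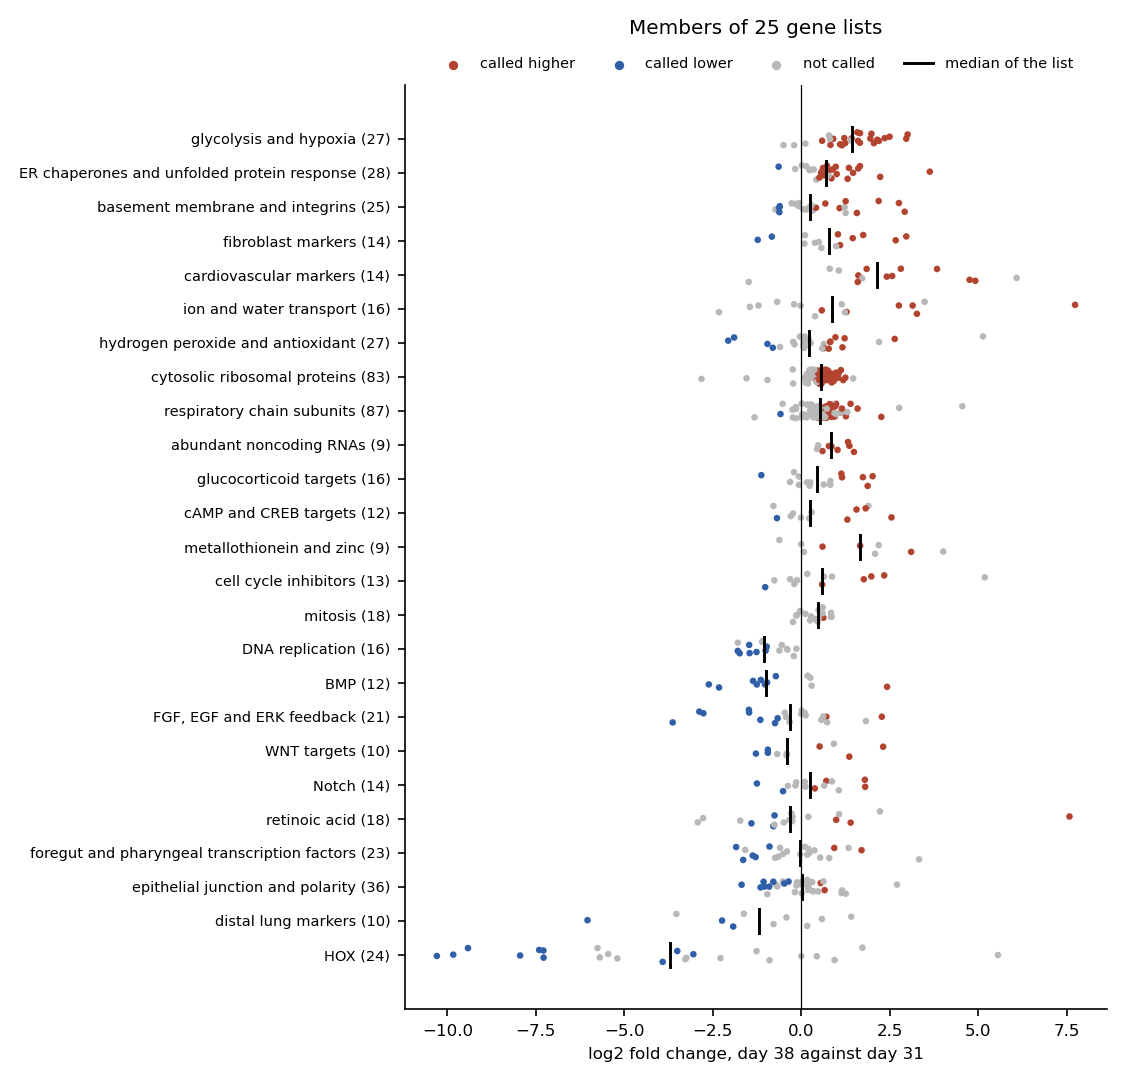
Log2 fold change (day 38 against day 31) of every tested gene of 25 lists, with the number tested in brackets. Red points were called higher and blue points lower by edgeR, grey points were not called, and black bars mark the medians, which run from −3.71 for HOX genes to 2.13 for the cardiovascular markers.

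Of 17 clock genes, 4 were called higher and none lower. Beside *BHLHE41*, its relative *BHLHE40* was at 98.8 and 93.9 CPM on day 31, against 267 and 258 on day 38 (log2 fold change 1.45 ± 0.16 SE, edgeR adjusted p = 8.4e-09), and *PER3* and *NFIL3* rose by 0.99 and 0.91. The core genes *CLOCK*, *PER2*, *CRY1* and *NR1D1* were not called. Of 23 cholesterol synthesis genes, 1 was called higher (*STARD4*, 0.76) and 1 lower, and 4 and 5 were called higher without day 16 replicate 1 and replicate 2. None was called in either direction without day 31 replicate 2 or day 38 replicate 1, none was lower without day 31 replicate 1, none was higher without TMM factors, and 2 were higher with either day 45 library left out.

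Markers of other cell types moved with these changes, and their part in the results above was not tested. Of 14 fibroblast markers, 6 were called higher and 2 lower, and their summed level was 2136 and 2494 CPM on day 31 and 5374 and 5630 on day 38. The log2 fold change was positive in 12 of the 14, with a median of 0.78 (0.38 to 1.16 with single libraries left out). *COL1A2* was at 154 and 210.2 CPM on day 31, against 1150.3 and 1163 on day 38 (log2 fold change 2.67 ± 0.14 SE, edgeR adjusted p = 2.6e-16), *COL6A3* at 51.3 and 73.4 CPM on day 31, against 462 and 511 on day 38 (log2 fold change 2.97 ± 0.16 SE, edgeR adjusted p = 1.8e-16), and *COL1A1*, *COL5A1* and *COL3A1* rose by 1.75, 1.45 and 1.10. The collagen genes were higher in both day 38 libraries. Among the markers of the list that do not encode fibrillar or microfibrillar collagens, the calls went both ways. *PDGFRA* rose by 1.04, *LUM* and *POSTN* fell by 1.23 and 0.83, and *DCN*, *PDGFRB*, *PRRX1*, *FBLN1*, *THY1* and *TWIST1* were not called. *COL3A1* had the most counts of the list, and no marker of it was at 0 in all 4 libraries. *VIM*, the mesenchymal intermediate filament, was at 624 and 664 CPM on day 31, against 2283 and 2038 on day 38 (log2 fold change 1.75 ± 0.11 SE, edgeR adjusted p = 4.3e-14).

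Of 14 cardiovascular markers, 9 were called higher and none lower, with a median log2 fold change of 2.13. Their summed level was 59.2 and 63.9 CPM on day 31 and 369 and 346 on day 38. *MYH6*, the atrial myosin heavy chain, had the most counts of the list at day 38, at 19.7 and 11.3 CPM on day 31, against 97.8 and 87.1 on day 38 (log2 fold change 2.57 ± 0.29 SE, edgeR adjusted p = 1.8e-08). *ACTC1*, cardiac actin, was at 0.512 and 3.72 CPM on day 31, against 65.8 and 46.2 on day 38 (log2 fold change 4.76 ± 0.50 SE, edgeR adjusted p = 4.4e-09), and *DES* and *MYL4* rose by 2.81 and 2.42. The days were separate in these genes. The cardiac transcription factor *NKX2-5* had 0 and 0 counts on day 31, against 4 and 13 on day 38 and was not called, and troponin T, *TNNT2*, was at 3.48 and 2.68 CPM on day 31, against 5.18 and 5.59 on day 38 and was not called. *TTN*, the sarcomere protein titin, is not in the list and was at 1708 and 1656 CPM on day 31, against 961 and 1176 on day 38 (log2 fold change −0.65 ± 0.12 SE, edgeR adjusted p = 8.0e-05), with 11.9% of its exonic bases shared with an antisense transcript and a gene of the same strand. *ACTA2* rose by 3.84 and shares 36% of its exonic bases with other genes.

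The other marker lists were smaller. Of 7 airway basal markers, *KRT17*, with the most counts, was called higher (13.3 and 19.7 CPM on day 31, against 85.8 and 72.8 on day 38, log2 fold change 2.27), and *TP63* and *KRT5*, which define basal cells, were not called, and *DAPL1* was at 0, with summed levels of 33.1 and 50.7 CPM on day 31 and 119 and 102 on day 38. Of 9 goblet and secretory airway markers, *MUC5AC* was at 1.53 and 0.814 CPM on day 31, against 29.7 and 21.9 on day 38 (log2 fold change 4.43 ± 0.73 SE, edgeR adjusted p = 2.8e-05), *MUC5B* rose by 2.41, and *AGR2*, with the most counts, was at 156 and 135 CPM on day 31, against 37.6 and 26.9 on day 38 (log2 fold change −2.17 ± 0.25 SE, edgeR adjusted p = 3.9e-08). The goblet markers summed to 164 and 149 CPM on day 31 and 95.6 and 66.5 on day 38. Of these sums *AGR2* alone was 156 and 135 CPM on day 31 and 37.6 and 26.9 on day 38, so the lower sum was the fall of *AGR2*. The median log2 fold change of the 9 markers was 0, with 4 of them positive, and between 0 and 0.87 with single libraries left out. *BPIFB1*, without counts in these libraries, enters this median as 0. *BPIFB1* and *TFF2* were at 0 in all 4 libraries, and the goblet cell factor *SPDEF* was under 1 CPM in each. With all 10 libraries fitted, 3 of 10 distal lung markers were called lower (*SFTPB*, *LAMP3* and *SLC34A2*) and none higher. The median log2 fold change of this list was −1.20, and between −1.67 and −0.64 with single libraries left out. The list summed to 652 and 654 CPM on day 31 and 152 and 152 on day 38. Of these sums *SFTPB* alone was 499 and 502 CPM on day 31 and 6.59 and 8.61 on day 38. The lower sum was therefore mostly the fall of *SFTPB*. *SFTPC* did not pass the filter and was at 0 at day 31. *SFTPB* had the most counts of the list at day 31, and *ABCA3*, with the most at day 38, was at 101 and 112 CPM on day 31, against 122 and 118 on day 38 and was not called. Of 11 forebrain and neuron markers, *OTX2*, with the most counts at day 38, was called higher (1.66) and *ELAVL4*, with the most at day 31, lower (−3.49), with sums of 35.3 and 31.4 CPM on day 31 and 38.3 and 48.0 on day 38, and *DLX1* was at 0 in all 4 libraries. No marker of this list was called higher without day 31 replicate 2, without either library of day 38 in turn or without TMM factors. Of 6 endothelial and blood markers, *KDR* and *TEK* fell by 1.66 and 1.67, with 1 lower without day 31 replicate 1, day 31 replicate 2 or day 38 replicate 1, and with sums of 61.0 and 60.3 CPM on day 31 and 30.8 and 29.6 on day 38, and *KDR* had the most counts on both days. *TYROBP* was at 0 in all 4 libraries, and *PECAM1* was at 0 in both day 31 libraries and had 0.648 and 0 CPM at day 38.

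**Figure D5:**
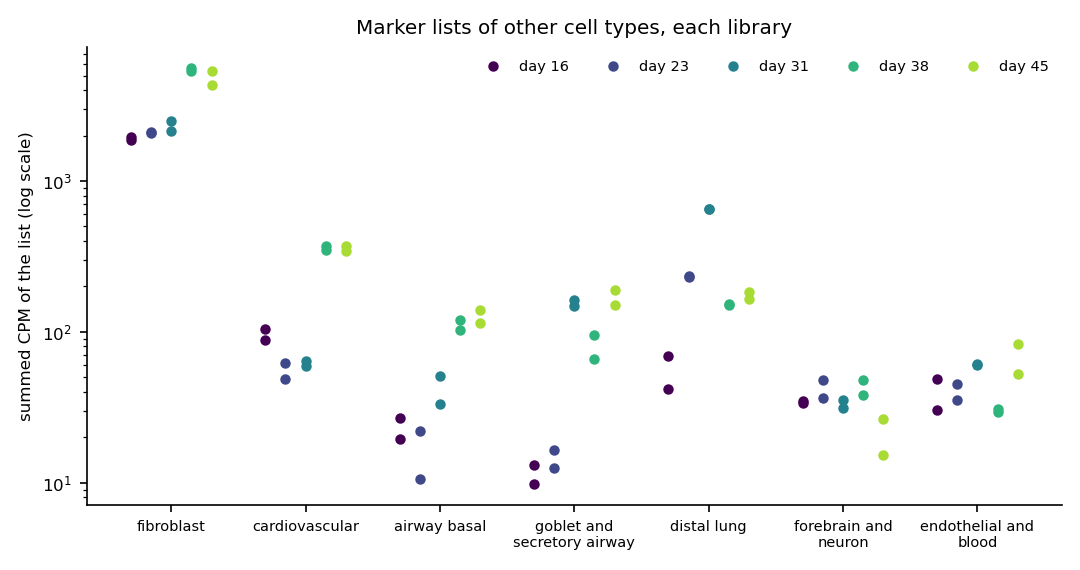
Summed CPM (log scale) of 7 marker lists in each of the 10 libraries, coloured by day. The fibroblast and cardiovascular sums were higher in both day 38 libraries (5374 and 5630, 369 and 346) than in both day 31 libraries, and the distal lung sums were lower (152 and 152 against 652 and 654). Of the distal lung sums at day 31, *SFTPB* alone was 499 and 502 CPM.

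By gain in mean CPM, 7 of the 10 leading genes were noncoding RNAs. *RN7SK* was at 27271 and 36253 CPM on day 31, against 91189 and 71800.5 on day 38 (log2 fold change 1.36 ± 0.11 SE, edgeR adjusted p = 2.7e-11), and *RN7SL1* and *RN7SL2*, the RNAs of the signal recognition particle, rose by 1.32 and 1.02. *RNU4-2*, a copy of the spliceosomal U4 RNA, was at 2319.5 and 941 CPM on day 31, against 9196 and 7204 on day 38. Another copy, *RNU4-1*, was at 946 and 441 CPM on day 31, against 5132 and 3745 on day 38. The day 31 libraries differed from each other in U4, at 0.350 and 0.147% of all counts, and both day 38 libraries were higher, at 1.28 and 1.03%. *NEAT1*, the RNA of nuclear paraspeckles, was at 4125 and 3633 CPM on day 31, against 9455 and 12297 on day 38 (log2 fold change 1.49 ± 0.11 SE, edgeR adjusted p = 1.1e-12). Of 9 abundant noncoding RNAs listed, 7 were called higher and none lower, and together they took 5.72 and 6.79% of the counts at day 31 and 14 and 11.6% on day 38. Of 231 small nucleolar RNAs tested, 45 were called higher and none lower, with a median log2 fold change of 0.70. RN7SL and U4 genes have near-identical copies in the genome, so their split between copies is uncertain.

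Many ribosomal protein genes also rose. Of 83 tested, 55 were called higher and none lower, with a median log2 fold change of 0.56, and without TMM factors 35 were called higher and 1 lower, with a median of 0.34. *RPL27* was at 94.4 and 89.9 CPM on day 31, against 245 and 192 on day 38 (log2 fold change 1.24 ± 0.16 SE, edgeR adjusted p = 5.3e-07) and *RPS14* at 118 and 110.2 CPM on day 31, against 272 and 246 on day 38 (log2 fold change 1.18 ± 0.15 SE, edgeR adjusted p = 2.2e-07), and the translation elongation factor *EEF1A1* rose by 0.61. The count was 31 without day 38 replicate 1, and ribosomal protein genes share reads with processed copies. Of 87 genes for subunits of the respiratory chain, 30 were called higher and 1 lower, with a median of 0.54, and 11 and 1 with a median of 0.32 without TMM factors. In the highest bin of protein-coding genes by mean CPM, 716 of 3258 were called higher and 454 lower. *COX8A* rose by 1.59, and *SDHA*, a subunit of complex II, fell by 0.59. The number called higher was 14 without day 31 replicate 1, 10 without day 31 replicate 2, 6 without day 38 replicate 1 and 19 without day 38 replicate 2, so the respiratory chain count rests on all 4 libraries. None was called lower when any of these 4 or day 23 replicate 2 was left out. Of 54 replication-dependent histone genes, 7 were called higher and 1 lower, and the number higher was 0 without day 38 replicate 1, 2 without day 31 replicate 1, 3 without day 31 replicate 2 and 4 without day 38 replicate 2 or TMM factors. The number lower was 0 without day 38 replicate 2, 2 without day 38 replicate 1 or with either day 45 library left out and 4 without TMM factors.

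By loss in mean CPM, *FN1*, *SST* and *UNC5C* led, the last of them a netrin receptor at 1399 and 1392 CPM on day 31, against 675 and 657 on day 38 (log2 fold change −1.07 ± 0.11 SE, edgeR adjusted p = 2.1e-09). *RANBP10*, a Ran-binding protein (chromosome 16, 67723070 to 67806560), was at 645 and 629 CPM on day 31, against 50.6 and 58.3 on day 38 (log2 fold change −3.55 ± 0.17 SE, edgeR adjusted p = 2.0e-17). Both were lower in both day 38 libraries, which the choice of these genes required. *ATP11A*, a lipid flippase, *KLHL24*, a ubiquitin ligase adaptor, and *FREM2*, an extracellular matrix protein, fell by 1.18, 1.45 and 0.63.

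The weeks on either side give the setting of these changes. From day 23 to day 31, both labelled c-AMP, 333 genes were called higher (1.58% of those tested) and 140 lower (0.666%), together 2.25%, and from day 38 to day 45, labelled TSH SB for the medium with SB431542, 1019 were called higher (4.85%) and 1334 lower (6.35%), together 11.2%. Calls with a log2 fold change of at least 1 made up 1.34 and 5.72% of the genes tested in these weeks. Each shares 2 libraries with the comparison described, so its values are given side by side without a test of likeness. In *VEGFA* the log2 fold changes of the weeks in order were 0.70, 2.97 and −0.58, and in *SLC2A1* 1.21, 2.15 and −1.43. In *HSPA5* they were 0.15, 1.46 and 0.22, with the middle week called alone. In *BMP4* they were 0.74, −2.61 and −1.55, and in *MCM2* 0.15, −1.74 and −0.57, of which the middle week alone was called in *MCM2*. *HSPH1* was at 629.7 and 714 CPM on day 45, above its day 31 level, with log2 fold changes of −2.38 and 3.0 in the last 2 weeks.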

How the data were processed

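Total RNA of sorted GFP+ cells had been made into low-input libraries. Per the labels and the study's methods, the authors trimmed reads with Trimmomatic, aligned them with HISAT2 to GRCh38.p13 and deposited raw counts per gene symbol from HTSeq, with its strand setting not stated. Counts were used as deposited. Depth was 8065086 to 10333933 counts in the libraries of days 31 and 38. Genes with 5 or more counts in 2 or more of the 10 libraries were kept, and edgeR 4.0.16 in R 4.3.3 (TMM factors, glmQLFit and glmQLFTest, 1 mean per day over all 10 libraries) was run with Benjamini-Hochberg adjustment at 0.05. Positions and overlaps came from GENCODE 44, matched by symbol for 25474 of 28265 symbols. Members and gene lists were chosen with earlier results of these data known. Named were list members, the 10 largest rises and falls in log2 fold change, and the 10 largest gains and losses in CPM among called genes with a mean of at least 5 CPM whose days did not overlap. Some genes that this rule names are not reported here. Same-numbered libraries did not deviate together (correlations −0.0320 to 0.0199), so replicate numbers were not taken as pairs. DESeq2 1.42.0, other scalings and filters, and leaving out each library were tried. The fits were tested on simulated data. There both made more false calls than the threshold of 0.05 allows. edgeR stayed within the looser limit set for the test and DESeq2 did not, so that the limit was afterwards kept for edgeR alone.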

Additional observations from a re-analysis of the deposited data

How the results depend on the processing

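Of the 3160 genes called between day 31 and day 38, 3039 were called in the same direction by DESeq2, 2493 without TMM factors, 2969 with upper-quartile factors, 3130 without the low-count filter and 3136 with only the 4 libraries compared. Without TMM factors 1183 were called higher and 2368 lower. With a log2 fold change of at least 1, 1021 were higher and 670 lower. With single libraries left out, where a lone library is assumed to vary like those of the other days, the counts ran from 1100 to 2100 higher and from 681 to 1592 lower. They were 1134 higher and 873 lower without day 31 replicate 1, 1100 and 718 without day 38 replicate 1, and 1198 and 681 without day 38 replicate 2. The replicate block gave 2036 higher and 1436 lower, and 3141 of the calls were shared with it.

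From day 23 to day 31, 333 were called higher and 140 lower, with ranges of 162 to 473 and 52 to 207 when single libraries were left out. The lower count was 281 with 4 libraries only, 211 with the replicate block and 56 at a log2 fold change of at least 1. From day 38 to day 45, 1019 were called higher and 1334 lower, with ranges of 501 to 1253 and 715 to 1650, and the higher count was 1874 with 4 libraries only. At a log2 fold change of at least 1 it was 604 higher and 598 lower. No called gene that the text names changed direction under any setting, and of those named but not called 34 had a log2 fold change whose sign differed under some setting. The cause of these differences was not tested, other than that the last setting adds a condition.

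Fitted with exonic or intronic length as an offset, chosen after seeing the data, 3036 and 2999 of the calls were shared. Of 41 list medians 9 changed sign under some setting, those of the foregut factors, antigen presentation, epithelial junction, mucin, peroxide, cholesterol, clock, endothelial and histone lists. On simulated counts both tools made more false calls than the threshold allows, DESeq2 more than edgeR. Depth limits statements on genes under about 1 CPM, and with 2 libraries a day no outlying library can be named. The strand setting is not stated, and libraries differ in noncoding RNA.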

Other observations

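The genes below lie outside the lists and were named after their values were seen. Some of them encode enzymes that modify collagen. *LOX*, which cross-links collagen, was at 20.8 and 14.4 CPM on day 31, against 109 and 158 on day 38 (log2 fold change 2.92 ± 0.26 SE, edgeR adjusted p = 1.3e-10). *P4HA1*, a subunit of prolyl 4-hydroxylase, was at 126 and 115 CPM on day 31, against 599.8 and 598 on day 38 (log2 fold change 2.31 ± 0.13 SE, edgeR adjusted p = 1.3e-15), and the lysyl hydroxylases *PLOD1* and *PLOD2* rose by 2.28 and 1.77 on the log2 scale, while *P4HA2* was not called (0.44). The days did not overlap in any gene called. *HILPDA*, a lipid droplet protein, *NDUFA4L2*, a mitochondrial protein, and *DDIT4*, an inhibitor of mTORC1 signalling, rose by 3.13, 3.16 and 3.56, and *STC2* and *IGFBP2*, which are secreted, by 2.89 and 3.89.

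Of small RNAs made by RNA polymerase III, 4 more are named. *RNY1* was at 62.8 and 39.9 CPM on day 31, against 1038 and 838 on day 38 (log2 fold change 4.19 ± 0.19 SE, edgeR adjusted p = 4.2e-18), and *RNY3*, *RNY4* and the 5S ribosomal RNA gene *RNA5S9* rose by 3.97, 3.92 and 3.76 on the log2 scale. On day 45 *RNY1* was at 1163 and 1043 CPM. Y RNAs and 5S genes have many near-identical copies, so their split between copies is uncertain.

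Of genes for secreted peptides and their processing, 5 are named. *PPY* and *PYY*, of the neuropeptide Y family, rose by 4.25 and 2.71. *NMU*, which encodes neuromedin U, was at 53.7 and 49.9 CPM on day 31, against 2.48 and 1.98 on day 38 (log2 fold change −4.53 ± 0.39 SE, edgeR adjusted p = 5.2e-11), *TTR*, which carries thyroid hormone and retinol-binding protein, at 57.5 and 54 CPM on day 31, against 4.97 and 3.38 on day 38 (log2 fold change −3.73 ± 0.54 SE, edgeR adjusted p = 2.4e-06), and *PCSK2*, a prohormone convertase, fell by 3.14. Day 38 lay below day 31 without overlap in *NMU*, *TTR* and *PCSK2*.

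The cytosolic chaperones *HSPA8* and *DNAJA1* were looked at beside *HSPH1*. From day 31 to day 38 *HSPA8* fell by 0.66 and *DNAJA1* by 0.81, and from day 38 to day 45, a comparison that shares the day 38 libraries, *HSPA8* rose by 1.32 and *DNAJA1* by 2.17.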
